A study of Rattus norvegicus with 45 samples.

Results

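Hippocampal RNA of rats that received haloperidol was compared with that of rats that received vehicle. The comparison was defined by the sample titles alone and takes 10 of the 45 arrays of the study, 5 from haloperidol rats and 5 from vehicle rats. All animals were male Sprague-Dawley rats. Subcutaneous osmotic minipumps were implanted at 9 to 11 weeks of age and tissue was taken 21 days later. The haloperidol dose was 0.25 mg/kg/d, vehicle rats carried pumps without drug, and 5 further rats received risperidone, another antipsychotic, at 5 mg/kg/d. Every rat also gave frontal cortex and striatum. Animal numbers in the labels run from 32 to 36 for vehicle and from 41 to 50 for haloperidol, so that any difference of handling between these blocks cannot be told apart from treatment.

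Haloperidol is an antipsychotic that blocks D2-type dopamine receptors, which couple to inhibitory G proteins and lower cAMP. It also binds alpha-1 adrenergic receptors, some serotonin receptors, sigma sites and the Kcnh2 potassium channel. In striatum D2 receptors are abundant and their blockade acutely induces immediate early genes, whereas hippocampus receives a sparse dopamine input. In the study the rats served to ask which transcript changes of medicated patients could follow from the drug.

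Hippocampal identity was checked first. Markers of dentate granule cells had a mean log2 intensity of 9.13 in hippocampus, against 8.02 in frontal cortex and 7.80 in striatum. Those of CA1 pyramidal cells had 9.62 against 8.03 and 7.76, and those of CA2 and CA3 9.99 against 8.86 and 8.77. Higher than in both other regions were 7 of 9 dentate, 6 of 8 CA1 and 7 of 8 CA2 and CA3 markers. The same held for 33 of 34 ribosomal protein genes, 16 of 17 astrocyte markers and 10 of 14 markers of neighboring thalamus and cortex. It held for only 3 of 15 interneuron and 5 of 17 endothelial and mural markers. These counts alone therefore do not mark hippocampus. The ribosomal list differed less in mean level (12.25 against 12.05 in frontal cortex and 12.06 in striatum). Dsp, a dentate marker, measured 6.11 in hippocampus and 6.14 in frontal cortex. Median array intensities were 107 to 110.4 in these 10 arrays and 87.9 to 93.1 in the other regions, so that levels between regions rest on separately scaled values. The tissue label calls the source a mouse brain region although the organism given is rat. The log2 values of any 2 of the 10 hippocampus arrays correlated at 0.988 to 0.994 across probe sets.

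No transcript passed the test for haloperidol against vehicle in hippocampus. Of 18609 probe sets tested with limma, 0 (0%) reached an adjusted p under 0.05 with at least a 1.2-fold change, and the smallest adjusted p was 0.106. At an unadjusted p under 0.05 there were 699 probe sets (3.76%), of which 322 (1.73%) were higher and 377 (2.03%) lower after haloperidol, and 166 (0.892%) also differed by at least 1.2-fold. All 5 haloperidol rats lay above all 5 vehicle rats for 86 probe sets (0.462%) and below them for 159 (0.854%). The median log2 change over all probe sets was -0.0043.

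The fit shares its estimate of the spread among all 9 groups of region and treatment, and hippocampus varied less than the other regions. The median SD within a group was 0.10 on the log2 scale in haloperidol hippocampus and 0.09 in vehicle hippocampus, against 0.12 and 0.11 in the same groups of striatum. With the 10 hippocampus arrays fitted alone, 1600 probe sets (8.60%) had an unadjusted p under 0.05 and 2 were called, a probe set of Eml1 and a probe set of Id2. With array weights 2355 had an unadjusted p under 0.05 and 13 were called, among them Slc4a7, Homer1, Eml1, Dusp5, Nfil3 and the other probe set of Id2. The count of 0 therefore did not hold in these fits.

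**Figure D1:**
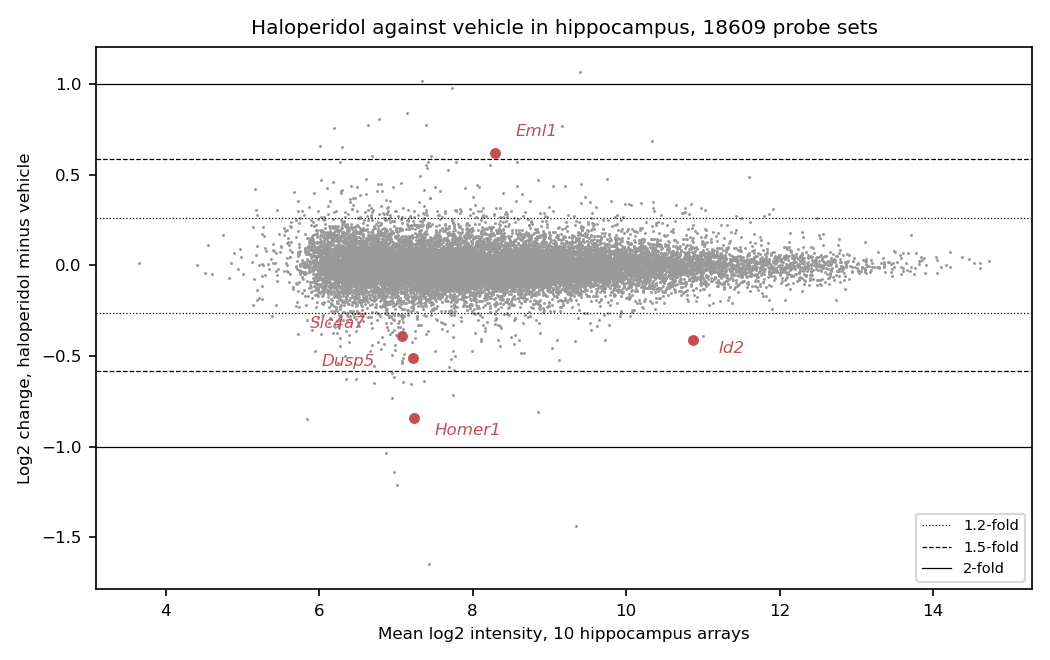
Log2 change (haloperidol minus vehicle, 5 rats each) of each of the 18609 probe sets against its mean log2 intensity in the 10 hippocampus arrays, with lines at 1.2-fold, 1.5-fold and 2-fold. Nearly all points lie inside the 1.5-fold lines, and 5 leading genes, none of which passed the test, are marked in red.

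The intervals show how much room the data leave for change. The 95% confidence interval lay inside 1.2-fold in both directions for 12213 probe sets (65.6%), inside 1.5-fold for 17970 (96.6%) and inside 2-fold for 18523 (99.5%). In an equivalence test against 1.5-fold, 18159 probe sets (97.6%) had a change smaller than 1.5-fold at an adjusted p under 0.05. With intervals widened to hold at 95% over all probe sets together, 12232 (65.7%) lay inside 1.5-fold, 17315 (93.0%) inside 2-fold and 18329 (98.5%) inside 3-fold. Of the 10248 named genes, 9924 (96.8%) had the interval of every tested probe set inside 1.5-fold.

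The distance from an estimate to either end of its 95% interval had a median of 0.16 on the log2 scale, which is 1.12-fold, and its 95th percentile was 0.35, or 1.28-fold. A lone probe set of median standard error would have needed a log2 change of 0.44, or 1.36-fold, to pass after adjustment. Precision followed the level of a transcript: in the lowest tercile of intensity 94.3% of intervals lay inside 1.5-fold, in the middle tercile 97.1% and in the highest 98.3%. In the fit of the 10 arrays alone 75.2% lay inside 1.2-fold and 97.6% inside 1.5-fold.

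For 86 probe sets the interval reached beyond 2-fold, and 53 of them name 48 genes. The widest belonged to Ttr, which encodes transthyretin and is made by the choroid plexus (log2 1.07, interval -1.68 to 3.82). Ttr ran from 7.69 to 12.15 over the haloperidol rats and from 7 to 12.35 over the vehicle rats. Other wide intervals were those of Car3, a carbonic anhydrase (-2.50 to 1.19), Folr1, a folate receptor of choroid plexus (-1.44 to 1.49), and Igfbp2, which binds insulin-like growth factors (-0.97 to 1.85). In this fit change in these genes is bounded only loosely, and the widths rest on the spread shared by all 9 groups. The values of Ttr were also far apart within hippocampus. Folr1 there ran only from 5.65 to 6.22 over the haloperidol rats and from 5.7 to 6.39 over the vehicle rats. Its interval is therefore wider than the hippocampus values alone would give. The spread of Car3 and Igfbp2 within hippocampus was not examined. The interval was also wide for Slc17a7, the vesicular glutamate transporter of excitatory neurons (-1.03 to 0.86 for its least precise probe set).

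Slc4a7, Homer1 and Eml1 shared the smallest adjusted p, 0.106. Slc4a7, a sodium bicarbonate cotransporter, measured 7.08, 6.81, 6.95, 6.83 and 6.74 (log2 intensity) in haloperidol rats 1 to 5 and 7.22, 7.32, 7.18, 7.34 and 7.28 in vehicle rats 1 to 5. Every haloperidol rat lay below every vehicle rat, and the difference was -0.39 (standard error 0.08, interval -0.55 to -0.24). Its second probe set differed by -0.06 (-0.23 to 0.10), so that the difference was not shared by both.

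Homer1 encodes a postsynaptic scaffold that links metabotropic glutamate receptors to calcium stores, with a short form induced by activity. Its probe set with the smallest p gave 6.80, 7.10, 7.31, 6.57 and 6.30 after haloperidol and 8.12, 7.54, 7.68, 7.26 and 7.71 after vehicle. Haloperidol rat 3 lay above vehicle rat 4, and the other haloperidol rats lay below all vehicle rats. The log2 difference was -0.84 (standard error 0.17, interval -1.18 to -0.50). The other 4 Homer1 probe sets differed by -0.26 to 0.06, each with an interval across 0. Without haloperidol rat 2 Homer1 was called (adjusted p = 0.0495 from limma), and without each other haloperidol or vehicle rat it was not (adjusted p up to 0.765).

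Eml1, which encodes a microtubule-associated protein, measured 8.51, 8.50, 8.86, 8.53 and 8.58 after haloperidol and 7.94, 7.89, 8.15, 7.97 and 7.94 after vehicle. The groups did not overlap, and the log2 difference was 0.62 (standard error 0.13, interval 0.36 to 0.88). The second of its 3 probe sets differed by 0.43 (interval 0.18 to 0.68) and the third by 0.02 (-0.16 to 0.20). The first was called in the 10 arrays alone (adjusted p = 0.0408 from limma), with array weights (0.00261) and without haloperidol rat 2 (0.0495).

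Both probe sets of Id2, an inhibitor of basic helix-loop-helix transcription factors, separated the groups, in opposite directions. The brighter gave 10.60, 10.86, 10.66, 10.50 and 10.72 after haloperidol and 10.97, 11.14, 11.10, 11.11 and 11.08 after vehicle, a log2 difference of -0.41 (standard error 0.12, adjusted p = 0.9996). The other gave 9.66, 9.79, 9.72, 9.60 and 9.74 against 9.37, 9.31, 9.36, 9.35 and 9.38, a difference of 0.35 (standard error 0.15, interval 0.04 to 0.66). Id2 therefore has no settled direction at the level of the gene. The second probe set was the one called in the 10 arrays alone (adjusted p = 0.0408), and the first the one called with array weights (0.0209).

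Of the 10 genes with the smallest p in each direction, none passed. Dusp5, a phosphatase that inactivates ERK in the nucleus, measured 7.29, 6.88, 6.86, 6.84 and 6.96 after haloperidol and 7.27, 7.55, 7.84, 7.59 and 7.13 after vehicle. Its log2 difference was -0.51 (interval -0.77 to -0.25), and haloperidol rat 1 stood within the vehicle range. Lower values were also measured for Cntfr, the receptor of ciliary neurotrophic factor (-0.29), Erc1, a protein of the presynaptic active zone (-0.22 and -0.24 in its probe sets), the helicases Dhx16 (-0.21) and Ighmbp2 (-0.19) and the dynein light chain Dnal1 (-0.19).

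Among the higher values, both probe sets of Manea, a Golgi mannosidase, separated the groups, by 0.32 (interval 0.16 to 0.48) and 0.12 (0.03 to 0.21). Its first probe set ran from 6.69 to 6.98 after haloperidol and from 6.41 to 6.57 after vehicle. Cdkl4, a kinase, was higher by 0.57 and 0.60 in its probe sets, which also did not overlap. Cyp26b1, which degrades retinoic acid, was higher by 0.27 (0.12 to 0.42) and 0.57 (0.17 to 0.97), again without overlap in either probe set. Other higher values were those of Tgif1, a transcriptional repressor (0.47), Mlf2 (0.34), Chadl (0.30) and Leprot (0.24, with 0.08 in its second probe set).

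**Figure D2:**
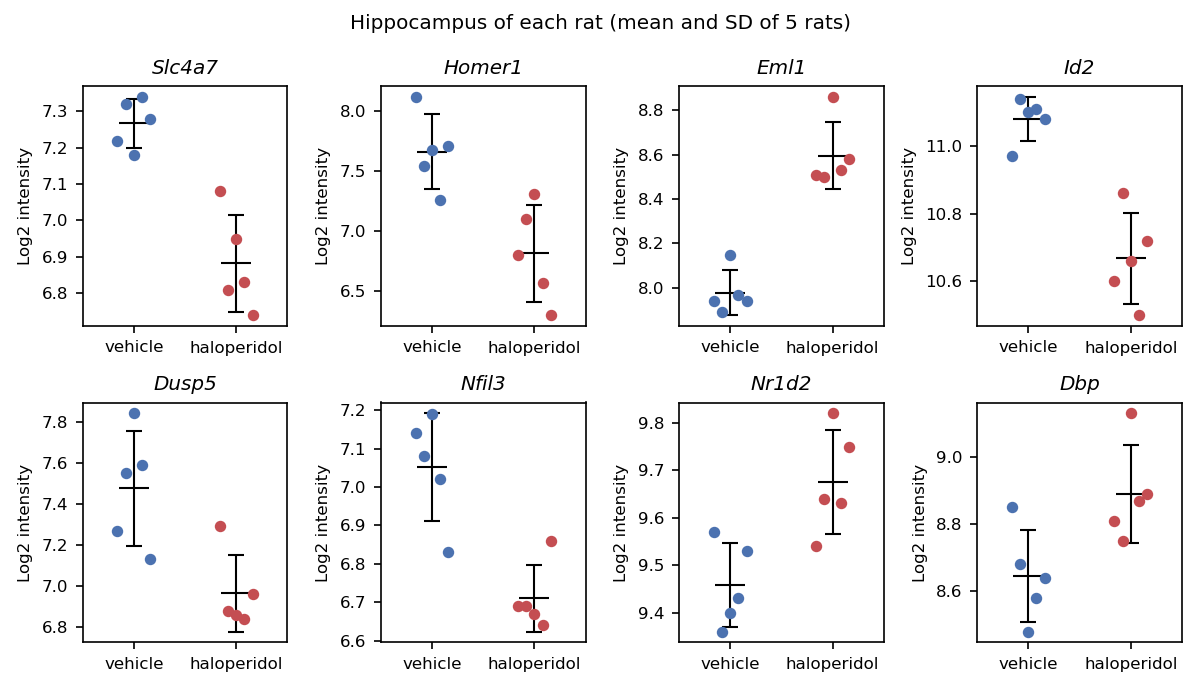
Log2 intensity of 8 genes in the hippocampus of each rat, vehicle in blue and haloperidol in red, with bars for the mean and SD of 5 rats and each axis scaled to its gene. Slc4a7, Eml1 and the Id2 probe set shown separate the groups, while Homer1, Dusp5, Nfil3, Nr1d2 and Dbp overlap.

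The receptors that haloperidol binds showed no change that passed, and the dopamine receptors were near the lower end of the scale. The D2 receptor gene Drd2 measured 4.68, 5.01, 4.85, 5.07 and 5.33 after haloperidol and 5.04, 4.96, 5.03, 5.07 and 5.09 after vehicle. Its mean level was 10.7 in striatum, so that Drd2 was tested only because of its striatal level (the filter lay at 5.88), and its log2 difference in hippocampus was -0.05 (-0.51 to 0.41). The D1 receptor gene Drd1 measured 6.03 to 6.84 after haloperidol and 6.05 to 7.04 after vehicle, with a difference of 0.15 (-0.37 to 0.67). In Drd1 vehicle rat 1, at 7.04, stood apart from the other vehicle rats, which lay between 6.05 and 6.17. Drd3, Drd4 and Drd5 were under the filter, at group means of 3.51 to 5.16.

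Intervals of the other binding sites were narrower for most. Those of Kcnh2 (-0.21 to 0.18), Hrh1, the histamine H1 receptor (-0.23 to 0.18), Tmem97, the sigma-2 site (-0.20 to 0.12), and the serotonin receptors Htr2a (-0.15 to 0.32) and Htr7 (-0.28 to 0.28) lay inside 1.5-fold. The Htr2a probe set averaged 5.44 after haloperidol and 5.36 after vehicle, under the filter of 5.88, and was tested only because of its level in frontal cortex (7.22), so its interval bounds a value near the lower end of the scale. Grin2b, an NMDA receptor subunit, gave -0.22 (-0.44 to 0.0019). Among the alpha-1 adrenergic receptors, Adra1b gave -0.03 (-0.48 to 0.41) at levels of 5.74 and 5.77 that are also under the filter (8.29 in frontal cortex), Adra1d gave -0.22 with an interval that passed 1.5-fold (-0.64 to 0.19), and Adra1a was under the filter. The transcript of the sigma-1 site is not analysed here.

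**Figure D3:**
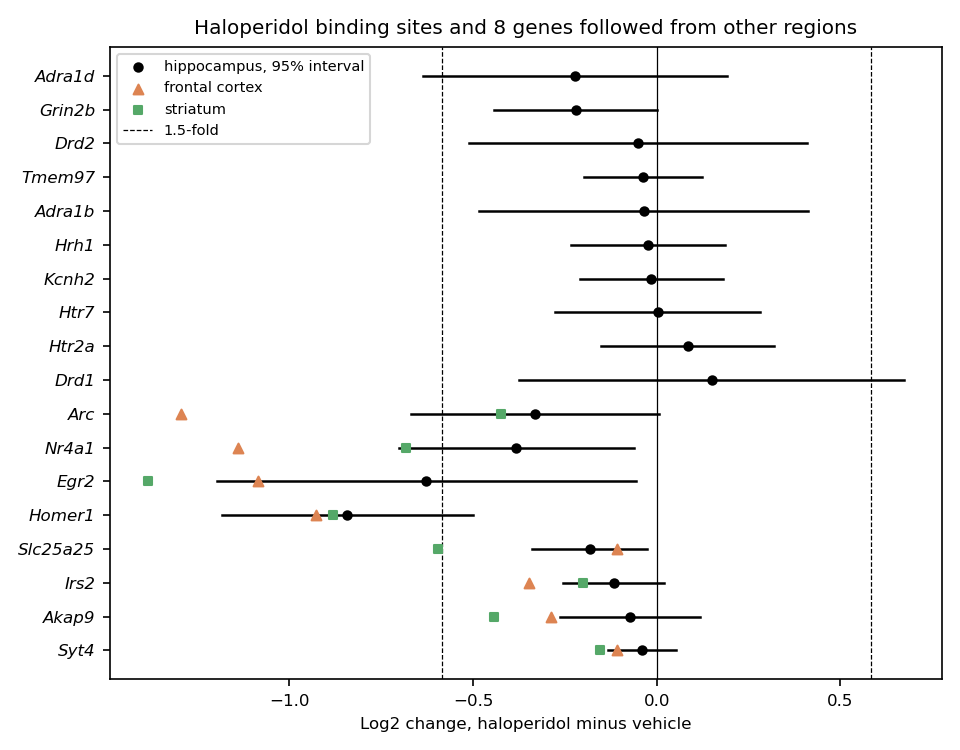
Log2 change after haloperidol with its 95% interval in hippocampus (black) for 10 genes of haloperidol binding sites and 8 genes followed from other regions, for which the change in frontal cortex (triangles) and striatum (squares) is set beside it, with dashed lines at 1.5-fold. Most binding sites stay inside 1.5-fold, and the cortical value of Arc (-1.30) and the striatal value of Slc25a25 (-0.59) lie outside the hippocampal interval.

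Signaling downstream of these receptors was measured closely. Here and in the lists below, interval counts use the brightest probe set of each gene. Other probe sets of a gene can reach farther. Of 43 genes of PKA, cAMP and CREB signaling, 0 reached an unadjusted p under 0.05, the median log2 change was -0.0063, and 41 had an interval inside 1.5-fold. Adcy9, an adenylyl cyclase, was one that did not (-0.87 to 0.17). Of 16 genes of the Akt and GSK3 branch, 15 lay inside 1.5-fold and only Ctnnb1, which encodes beta-catenin, had an unadjusted p under 0.05 (log2 -0.10, interval -0.18 to -0.02).

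Activity-regulated genes, which neurons induce upon firing, included the most members with an unadjusted p under 0.05 of the 42 gene lists. Of 31 measured, 8 were lower and 1, Ier3, was higher at an unadjusted p under 0.05, and 0 passed adjustment over all probe sets. In probe sets this was 21.3% of the list against 3.73% of all probe sets with a named gene, and 27.7% against 8.60% of all probe sets in the 10 arrays alone. The median log2 change was -0.10, against -3e-04 over all named genes, and 23 of the 31 had an interval inside 1.5-fold. By the brightest probe set 20 of the 31 were on the low side, against 5147 of 10248 named genes. The other 11 were on the high side, by up to 0.30. The list was drawn up with the falls of such genes in the other regions of these rats known, so that it is not independent of them.

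Junb, an AP-1 subunit, measured 8.31, 8.05, 8.25, 8.09 and 8.11 after haloperidol and 8.73, 8.29, 8.55, 8.38 and 8.31 after vehicle, a log2 difference of -0.29 (-0.48 to -0.10). Haloperidol rat 1, at 8.31, lay above vehicle rat 2, so the groups overlapped. Egr2, an immediate early transcription factor, ran from 5.34 to 6.73 after haloperidol and from 6.25 to 7.10 after vehicle, a difference of -0.63 (-1.20 to -0.06). Fos gave -0.56 (-1.13 to 0.0048) and Klf4 -0.33 (-0.61 to -0.05). Bdnf, whose neurotrophin product supports plasticity, gave -0.13 with a wide interval (-0.815 to 0.56).

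The ERK feedback genes, which damp the MAP kinase cascade that induces them, gave Dusp5 and Dusp6 lower and Spry2 higher among 9 measured at an unadjusted p under 0.05. In probe sets this was 26.7%, against 3.73% of all probe sets with a named gene, and in the 10 arrays alone it was 26.7% against 8.60% of all probe sets. Dusp6, which inactivates ERK in the cytoplasm, ran from 9.16 to 9.68 after haloperidol and from 9.47 to 9.89 after vehicle, with a difference of -0.32 (-0.60 to -0.04) in the probe set with the smallest p. Spry2, an inhibitor of receptor tyrosine kinase signaling, differed by 0.16 (0.02 to 0.30).

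Of the 8 genes followed because they fell in another region of the same rats, Arc gave the widest gap. Arc, which acts in AMPA receptor endocytosis, measured 8.06, 7.89, 8.10, 7.97 and 7.81 in haloperidol hippocampus and 8.34, 8.10, 8.59, 8.33 and 8.13 in vehicle hippocampus. Every haloperidol rat lay below every vehicle rat, haloperidol rat 3 and vehicle rat 2 by less than the rounding shows. The log2 difference was -0.33 (-0.67 to 0.0060) in hippocampus, -1.30 in frontal cortex and -0.42 in striatum. The hippocampal difference minus the cortical was 0.96 (standard error 0.21, adjusted p = 0.178 from limma), which did not pass, and of the alternatives run it passed only with array weights.

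Nr4a1, an orphan nuclear receptor, gave -0.38 (-0.70 to -0.06) in hippocampus beside -1.14 in frontal cortex and -0.68 in striatum, and its difference from cortex was 0.76 (adjusted p = 0.339). Slc25a25, a mitochondrial ATP-Mg carrier, gave -0.18 (-0.34 to -0.03) beside -0.59 in striatum (difference 0.41, adjusted p = 0.198). Homer1 had closely similar values in the 3 regions: -0.84 in hippocampus, -0.93 in frontal cortex and -0.88 in striatum, with a hippocampus minus cortex difference of 0.08 (standard error 0.21). Irs2, an adaptor of the insulin receptor, gave -0.12 (-0.25 to 0.02) and Akap9, which anchors protein kinase A, -0.07 (-0.26 to 0.12). Syt4, a vesicle protein, gave -0.04 (-0.13 to 0.05) in the probe set with the smallest p and 0.0077 (-0.18 to 0.19) in the one that had been called in striatum (-0.42). These genes were chosen for their fall elsewhere, so the gaps between regions are descriptions.

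Over all probe sets, 0 (0%) of the differences between the effect of haloperidol in hippocampus and in frontal cortex passed, with 1563 (8.40%) at an unadjusted p under 0.05. Rbm24, which encodes an RNA-binding protein, had the smallest adjusted p, 0.0704, with a difference of 0.40, and was called with 1 probe set per gene and without vehicle rat 2. Against striatum 0 (0%) passed, with 1369 (7.36%) at an unadjusted p under 0.05. Array weights gave 89 and 87 called, with Arc and Nr4a1 among the former and Slc25a25 and Akap9 among the latter. In frontal cortex 33 probe sets (0.177%) were called, 10 higher (0.0537%) and 23 lower (0.124%), and the median size of the log2 change was 0.41 there and 0.12 in hippocampus. In striatum 63 (0.339%) were called, 8 higher (0.043%) and 55 lower (0.296%), and it was 0.44 there and 0.12 in hippocampus. Selection on the first value of each pair enlarges it.

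Circadian clock genes lay in both directions. Of 18 measured, 3 were higher and 2 lower at an unadjusted p under 0.05 (20.7% of probe sets, against 3.73% of those with a named gene), and all 18 intervals lay inside 1.5-fold. In the 10 arrays alone the share was 17.2% against 8.60% of all probe sets. Nr1d2, a nuclear receptor that represses Bmal1, measured 9.54, 9.64, 9.82, 9.63 and 9.75 after haloperidol and 9.57, 9.36, 9.40, 9.43 and 9.53 after vehicle. Its log2 difference was 0.22 (0.10 to 0.33), and 2 other probe sets gave 0.21 (0.09 to 0.34) and 0.19 (-0.04 to 0.41). Its paralog Nr1d1 was higher by 0.21 (0.07 to 0.35).

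Dbp, which activates genes through D-box elements, ran from 8.75 to 9.13 after haloperidol and from 8.48 to 8.85 after vehicle, a difference of 0.24 (0.06 to 0.42). Nfil3, which represses through the same elements, measured 6.69, 6.69, 6.67, 6.64 and 6.86 after haloperidol and 7.14, 7.08, 7.19, 7.02 and 6.83 after vehicle. Only vehicle rat 5 lay within the haloperidol range, and the difference was -0.34 (-0.52 to -0.16). Per1, a clock repressor that glucocorticoids and activity also induce, gave -0.18 (-0.35 to -0.0017). Clock transcripts cycle over the day, and collection times are not given in the sources used here.

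Glucocorticoid-responsive genes included Per1 as the only one of 12 with an unadjusted p under 0.05. Of the 12, 10 were on the low side, against 5147 of 10248 named genes, and all had intervals inside 1.5-fold. Sgk1, a kinase induced by corticosteroids, gave -0.23 (-0.54 to 0.08), Fkbp5, a cochaperone of the glucocorticoid receptor, -0.20 (-0.43 to 0.03), and the receptor gene Nr3c1 0.15 (-0.01 to 0.32).

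Some ionotropic receptor, scaffold and release genes of the glutamate synapse had lower values. Of 13 AMPA and kainate receptor genes and auxiliary subunits, 3 had an unadjusted p under 0.05, all lower (16.7% of probe sets, against 3.73% of those with a named gene), and all 13 intervals lay inside 1.5-fold. Gria1, an AMPA receptor subunit, ran from 10.07 to 10.40 after haloperidol and measured 10.11 to 10.66 after vehicle, a difference of -0.24 (-0.45 to -0.03), with vehicle rat 1 apart from the others. Grik4, a kainate receptor subunit, gave -0.26 (-0.47 to -0.04) and Cacng8, an AMPA receptor auxiliary subunit, -0.27 (-0.52 to -0.0084). Grin1, the obligatory NMDA receptor subunit, gave -0.13 (-0.24 to -0.02).

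Of 6 metabotropic glutamate receptor genes, 0 had an unadjusted p under 0.05, 4 were on the high side and the median was 0.04. Of 23 postsynaptic density genes, 22 had intervals inside 1.5-fold. At an unadjusted p under 0.05 there were 3, all lower (5.88% of probe sets, against 3.73% of those with a named gene). Homer3 gave -0.33 (-0.57 to -0.09) and Shank2, a scaffold, -0.25 (-0.44 to -0.06). The brighter probe set of Shank2 gave -0.03 (-0.24 to 0.17). In the list of 25 synaptic vesicle release genes, 21 were on the low side, against 5147 of 10248 named genes, with a median of -0.03. At an unadjusted p under 0.05 there were 3, all lower (7.69% of probe sets, against 3.73% of those with a named gene). Bsn, which encodes the active zone protein bassoon, separated the groups at 11.61 to 11.94 after haloperidol and 11.97 to 12.13 after vehicle (difference -0.24, interval -0.44 to -0.04). Pclo, which encodes piccolo, gave -0.25 (-0.49 to -0.01) and Unc13a, a priming factor, -0.18 (-0.34 to -0.01).

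Inhibitory synapses gave nothing at an unadjusted p under 0.05. By its brightest probe set, each of 12 GABA receptor genes had an interval inside 1.5-fold, with a median of -0.0057. So had 11 of 15 interneuron and GABA synthesis markers. Other probe sets passed 1.5-fold in Gabbr1 (-0.59 to 0.03 and -0.34 to 0.60) and Gabrb2 (-0.35 to 0.66). Among 21 sodium and calcium channel genes, 3 were lower at an unadjusted p under 0.05. The share of probe sets was 10%, against 3.73% of those with a named gene. All 21 lay inside 1.5-fold by the brightest probe set. Of the 3, Cacna1b separated the groups (-0.21, interval -0.39 to -0.03). Cacna1a gave -0.30 (-0.51 to -0.09) and Scn3b, a sodium channel beta subunit, -0.19 (-0.38 to -0.0063). Other Cacna1a probe sets gave -0.27 (-0.586 to 0.05, past 1.5-fold), -0.18 and 0.11. Htr4, a serotonin receptor coupled to cAMP, ran from 6.78 to 6.97 after haloperidol and from 6.99 to 7.38 after vehicle, a difference of -0.34 (-0.60 to -0.09).

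Neurogenesis and neurotrophin genes, often studied in hippocampus after psychoactive drugs, gave no value at an unadjusted p under 0.05. Of 13 genes of adult neurogenesis, 12 had an interval inside 1.5-fold and the median was 0.02. Stmn1 gave 0.18 (-0.04 to 0.41) and Sox2, a stem cell factor, 0.17 (-0.04 to 0.38) in the probe set with the smallest p. The other probe sets of Sox2 gave 0.02 and -0.0092. Of 14 neurotrophins and receptors, 12 lay inside 1.5-fold, with Ntrk2, the receptor of BDNF, at 0.09 (-0.06 to 0.24).

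Inflammatory transcripts were mostly too low to test or bounded. Of 26 cytokine, chemokine and acute inflammation genes on the array, 7 passed the filter on low values, and all 7 intervals lay inside 1.5-fold. Il6r, an interleukin-6 receptor subunit, gave the value farthest from 0, -0.19 (-0.41 to 0.03). All 21 measured genes of NF-kB, JAK and STAT signaling lay inside 1.5-fold, with Jak1 at -0.11 (-0.22 to -0.0064). Of 15 microglia and complement genes, 14 lay inside 1.5-fold and 0 had an unadjusted p under 0.05.

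Ifitm3, an interferon-induced membrane protein and one of the transcripts the study followed in human hippocampus, measured 7.76, 7.26, 7.64, 7.67 and 7.84 after haloperidol and 7.23, 7.13, 7.12, 7.45 and 7.37 after vehicle. Haloperidol rat 2 lay within the vehicle range, and the difference was 0.37 (0.09 to 0.66). It was the only one of 11 interferon-induced genes with an unadjusted p under 0.05. Its adjusted p was 0.9996. Hilpda and Bag3, from the same human set, gave -0.03 (-0.22 to 0.17) and -0.09 (-0.29 to 0.10), and 3 of the 11 genes of that set on the array passed the filter.

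Oligodendrocyte and myelin genes were all on the high side. Of 17 measured, 17 were higher, against 5101 of 10248 named genes, with a median of 0.23, and 2 had an unadjusted p under 0.05 (12% of probe sets, against 3.73% of all probe sets with a named gene). Ermn, a myelin cytoskeletal protein, measured 9.61, 10.48, 10.10, 9.40 and 10.36 after haloperidol and 9.26, 9.32, 9.94, 9.40 and 9.65 after vehicle, a difference of 0.48 (0.10 to 0.85). Haloperidol rats 1 and 4 lay within the vehicle range. Sox10, which drives oligodendrocyte differentiation, gave 0.29 (0.06 to 0.52), and Mbp, myelin basic protein, 0.07 (-0.05 to 0.19). In frontal cortex and striatum of the same rats the list's median was 0.29 and 0.23, with 17 and 16 genes higher. In bulk tissue more or fewer cells of a type and more or less RNA per cell cannot be told apart, and the genes of a list share their cells, so that their count is no measure of independent evidence.

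Markers of choroid plexus and meninges, tissue that adjoins the hippocampus, also lay on the high side. This held for 14 of 15 genes, against 5101 of 10248 named genes, with a median of 0.35. The mean of the list, relative to its mean over the 10 arrays, was 0.55, 0.11, 0.50, 0.07 and -0.23 in haloperidol rats 1 to 5 and -0.46, -0.35, -0.48, 0.13 and 0.17 in vehicle rats 1 to 5. By this mean haloperidol rats 1 and 3 were high and vehicle rats 1, 2 and 3 low. Ttr did not follow it in every rat: its highest value was 12.35 in vehicle rat 5, and haloperidol rat 1 measured 9.18. The list joins choroid plexus and meninges, so its mean does not stand for choroid plexus alone. Ttr lay above the filter level of 5.88 in every rat (7 to 12.35), whereas Folr1 (5.65 to 6.39) lay partly under it. Array intensities do not reach 0, so a measured value does not by itself show that this tissue was present. The fibroblast collagen gene Col1a2 reached 8.52 in haloperidol rat 1 against 6.39 to 7.43 in the other haloperidol rats. Col1a2 (0.81, interval 0.08 to 1.54) and Aldh1a2 (0.35, interval 0.0033 to 0.70) had an unadjusted p under 0.05. In probe sets this was 16.7% of the list, against 3.73% of all probe sets with a named gene. Without haloperidol arrays 1 and 3, Homer1 (-1.004) and Slc4a7 (-0.48) were called (adjusted p = 0.0324 and 0.0277 from limma). These arrays held the highest haloperidol values of Slc4a7 (7.08 and 6.95), and array 3 that of Homer1 (7.31). Leaving them out, a choice made after the values were seen, was thus bound to enlarge both differences, and the calls are no check on the markers. With the marker mean as a covariate 0 were called, and Homer1 and Slc4a7 differed by -0.83 and -0.39 (adjusted p = 0.441 and 0.412 from limma). The part of these markers in other results was not tested.

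**Figure D4:**
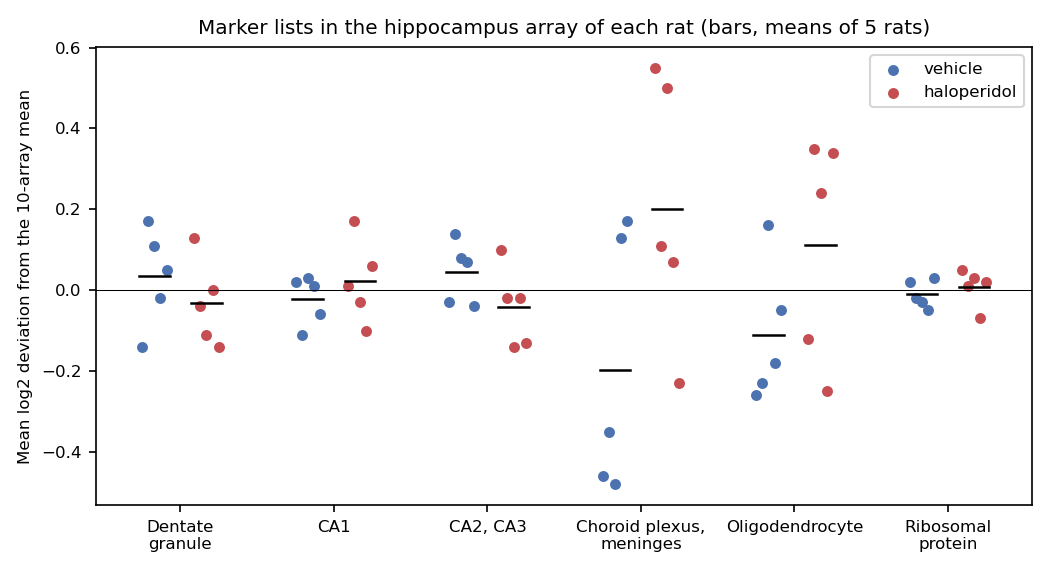
Mean log2 deviation of 6 marker lists in the hippocampus array of each rat from the mean of the 10 arrays, vehicle in blue and haloperidol in red, with bars at the means of 5 rats. The joint list of choroid plexus and meninges (-0.48 to 0.55) and the oligodendrocyte list spread most between rats. The ribosomal protein list spread least of the 6.

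Markers of other cells of the tissue were mostly bounded inside 1.5-fold. By the brightest probe set, all 17 astrocyte genes and all 17 endothelial and mural genes had intervals inside it. Another probe set of Flt1, an endothelial gene, passed it (-0.61 to 0.01). Aqp4, the water channel of astrocyte endfeet, ran from 11.73 to 12.15 after haloperidol and from 11.59 to 11.75 after vehicle. Its difference was 0.27 (0.05 to 0.49) in that probe set and 0.10 and 0.0056 in its others. Glul, glutamine synthetase of the same cells, gave -0.19 (-0.38 to -7e-04) in the probe set with the smallest p. Its others gave -0.14 and, in the brightest, 0.06 (-0.08 to 0.20). All 9 dentate granule cell markers and all 8 of CA2 and CA3 lay inside 1.5-fold, and 5 of 8 of CA1. Dsp, a dentate marker, gave -0.21 (-0.41 to -0.01). As a list mean relative to the 10 arrays, markers of neighboring thalamus and cortex ran from -0.22 to 0.33 over haloperidol rats. Over vehicle rats they ran from -0.27 to 0.22. Of these 14 genes, 9 had an interval inside 1.5-fold, and Tshz2 gave 0.43 (-0.04 to 0.89). The SD of Tshz2 was 0.75 after haloperidol and 0.59 after vehicle, while its standard error of 0.23 rests on the spread of all 9 groups. Its interval is therefore narrower than the hippocampus values alone would give.

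Genes of basic metabolism gave narrow intervals for the most part. All 53 subunits of oxidative phosphorylation lay inside 1.5-fold and 52 inside 1.2-fold, with a median of 0.0093. All 34 cytosolic ribosomal protein genes lay inside 1.2-fold. Of 28 genes of cholesterol biosynthesis and sterol response, a pathway that antipsychotic drugs induce in cultured cells, 27 lay inside 1.5-fold with a median of -0.0060, and Scd2, a fatty acid desaturase, gave 0.21 (0.02 to 0.39) in the probe set with the smallest p. Heat shock and unfolded protein response genes, which encode chaperones, were lower in 22 of 23, against 5147 of 10248 named genes. Their median was -0.07, with 0 at an unadjusted p under 0.05 and all 23 intervals inside 1.5-fold. Their medians were -0.06 in frontal cortex and -0.08 in striatum.

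**Figure D5:**
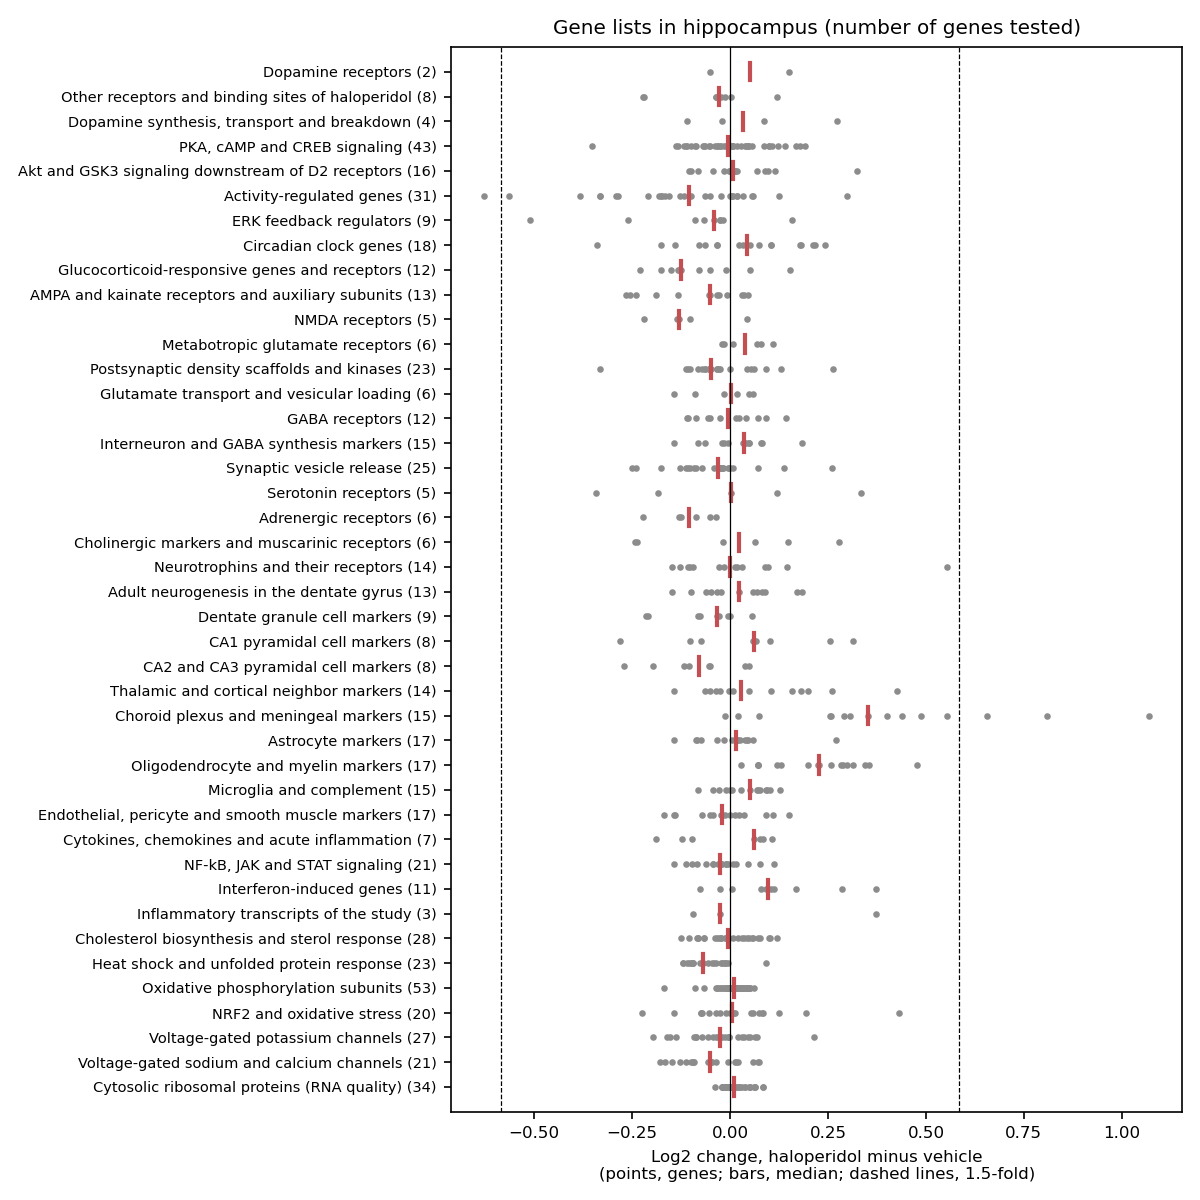
Log2 change in hippocampus, haloperidol minus vehicle, of each gene (points, by its brightest probe set) in the 42 lists, with the list's median as a red bar and dashed lines at 1.5-fold. The lists of choroid plexus and meninges (0.35) and of oligodendrocytes (0.23) sit to the right. Activity-regulated genes (-0.10) spread to the left, and ribosomal and oxidative phosphorylation genes cluster at 0.

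Haloperidol was last set directly against risperidone in hippocampus, at doses of 0.25 and 5 mg/kg/d. No probe set passed (0 of 18609, 0%), 1100 (5.91%) had an unadjusted p under 0.05, and the 95% interval of the difference lay inside 1.5-fold for 17866 (96.0%). Homer1 was higher after haloperidol than after risperidone by 0.41 (0.07 to 0.75, adjusted p = 0.810), beside differences from the shared vehicle rats of -0.84 after haloperidol and -1.25 after risperidone. Against those vehicle rats risperidone gave 21 calls (0.113%), 10 higher (0.0537%) and 11 lower (0.0591%). Eml1 differed between the drugs by 0.20 (-0.06 to 0.46) and Slc4a7 by -0.10 (-0.26 to 0.05). Htr4 was 0.29 higher after haloperidol (0.04 to 0.55, adjusted p = 0.810). Sstr1, a somatostatin receptor, had the smallest adjusted p, 0.296, with a difference of -0.65 (-0.93 to -0.37). Risperidone arrays 2, 3 and 4 stood apart from the other hippocampus arrays on the first principal component (27.6% of the variance), at 15.2 to 23.4 against -14.4 to 5.7, and without them 0 passed as well.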

How the data were processed

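Total RNA of the 3 regions of 15 rats was hybridized to 45 Affymetrix whole-genome rat arrays. The authors deposited linear intensity values made with RMA in R 2.7.2, per the labels, which corrects background, normalizes between arrays and summarizes probes, and compresses extreme differences. The number of arrays limits the precision.

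Intensities were put on the log2 scale. Of 31099 probe sets, 57 controls and those whose mean in the 45 arrays lay under the 40th percentile were left out. The remaining 18609 were tested, of which 14116 carry 1 gene in the platform annotation, 306 several and 4187 none (10248 genes). One limma 3.58.1 fit (R 4.3.3) held a mean for each of 9 groups with the rat as a random block (correlation 0.226, 39.9 degrees of freedom). Moderated t tests were two-sided and adjusted by Benjamini-Hochberg within a comparison. Intervals are 95% and unadjusted unless stated. A call needed an adjusted p under 0.05 and 1.2-fold. The method was tested on simulated data.

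Named genes were the 10 with the smallest p in each direction, the haloperidol binding sites, up to 4 per list by p, and 8 that fell in another region, each by its probe set with the smallest p. Other list members (Klf4, Ier3, Fos, Bdnf) and widest intervals were chosen after their values were seen. In lists a gene counted at an unadjusted p under 0.05 if any of its probe sets did, while medians, directions and interval counts use its brightest probe set. Members and the 42 lists were chosen with earlier results of these data known.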

Additional observations from a re-analysis of the deposited data

Results flagged for a closer look

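In 23 of 368 groups of 5 rats (184 named genes, 2 groups each) 1 rat stood apart by Dixon's criterion (a gap over 0.71 of the range), where chance flags about 1 in 20 groups. Among the leading genes these were haloperidol rat 3 in Eml1 (8.86, others 8.50 to 8.58), vehicle rat 2 in Chadl (5.30), haloperidol rat 1 in Dusp5 (7.29) and haloperidol rat 5 in Nfil3 (6.86). Among binding sites and genes followed from other regions they were vehicle rat 1 in Drd1 (7.04) and vehicle rat 5 in Akap9 (8.35).

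In signaling and synaptic genes, vehicle rats stood apart in Slc18a2 (6.36), Prkacb (10.25), Jund (6.78), Gria1 (10.11), Grin1 (10.46), Adra2b (6.44) and Dock10 (9.70). Haloperidol rats did so in Npy (10.55, others 9.68 to 9.79), Chrm1 (7.29) and Kcnab2 (8.09). In the remaining lists the values were 5.73 for haloperidol rat 2 and 6.88 for vehicle rat 5 in Flt1, 7.61 for vehicle rat 2 in Rela, and, in haloperidol rats, 6.78 in Irf7, 7.85 in Hilpda, 8.89 in Ndufs4 and 11.09 in Rpl14.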

How the results depend on the processing

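Over 32 alternatives, haloperidol against vehicle gave 0 calls except 2 in the 10 hippocampus arrays alone, 1 with no filter, 13 with array weights, 0 to 3 with 1 rat left out (3 without haloperidol replicate 2) and 2 without haloperidol arrays 1 and 3, a setting chosen after seeing the data. The cause of these differences was not tested. Unadjusted p values under 0.05 numbered 1230 in the 15 hippocampus arrays alone, 1264 of 31042 with no filter, 368 with 1 probe set per gene and 433 (without haloperidol replicate 5) to 1012 (without haloperidol replicate 1) with 1 rat left out. The share of probe sets whose interval reached 1.5-fold was 3.43%, 3.73 to 4.45% with 1 rat left out and 5.28% without haloperidol arrays 1 and 3. The difference from frontal cortex gave 89 calls with array weights, 1 with 1 probe set per gene and 0 to 1 with 1 rat left out (1 without haloperidol replicate 3, vehicle replicate 1 or vehicle replicate 2), that from striatum 87 with array weights, and haloperidol against risperidone 1 with no filter, 1 with the filter on hippocampus arrays and 0 to 1 with 1 rat left out (1 without risperidone replicate 2). Of 4362 values of named genes under alternatives, 4322 kept direction and side of the threshold, 13 passed it and 27 changed sign, all in 11 genes whose unadjusted p was above 0.05. With array weights these were Adra1b (0.0667) and Kcnh2 (0.0044), without haloperidol arrays 1 and 3 Drd2 (0.081), Htr7 (-0.0871) and Col1a1 (-0.0031), and with the choroid plexus marker covariate, also chosen after seeing the data, Hrh1 (0.0149) and Hilpda (0.0096). With 1 rat left out, values ran from -0.135 to 0.0257 in Drd2, -0.114 to 0.0223 in Adra1b, -0.0388 to 0.0624 in Htr7, -0.0615 to 0.0309 in Kcnh2, -0.0804 to 0.162 in Npy, -0.0866 to 0.0035 in Hilpda, -0.0028 to 0.155 in Htr2a, -0.0131 to 0.085 in Dock10, -0.0944 to 0.0485 in Hrh1 and -0.027 to 0.419 in Grm8.

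Replicate numbers name different animals, and the same-numbered haloperidol and vehicle rats deviated together with correlations of -0.19 to 0.07, so that the numbers do not pair them. With the replicate block 0 were called (smallest adjusted p = 0.0797) and 3.54% of intervals reached 1.5-fold.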
